A study of Mus musculus with 6 samples.

Results

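The genes described here are 3 cytokine genes of Th17 cells, Il17a, Il17f and Il22, and 3 genes for chains of IL-17 receptors, Il17ra, Il17rc and Il17re. They were chosen by name, with earlier results of these data known, and are 6 of 23393 genes of the table. RNA came from mouse cells that the labels call pathogenic Th17 cells, in 3 libraries of each of 2 genotypes. Naive CD4 T cells (strain C57BL/6) received CD3 and CD28 stimulation, together with the cytokines IL-6, IL-1b and IL-23, over 2 days. The tested genotype, Stim1fl/fl Stat3CSTOPfl/fl CD4-Cre, is called Stim1KO Stat3C here, and the control, Stat3CSTOPfl/fl CD4-Cre, is called Stat3C. Both carried Stat3C, an always-active STAT3 whose expression Cre turns on by cutting out a stop sequence, so neither group is wild type. In Stim1KO Stat3C, floxed Stim1 was deleted as well; it encodes the calcium sensor of the endoplasmic reticulum that opens store-operated calcium channels. Cre was driven by CD4, which is active in the thymus before the CD4 and CD8 lineages separate, so the alleles were changed before the cells were put in culture.

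IL-17A and IL-17F are closely related secreted proteins that pair as homodimers or as a heterodimer. They act on epithelial cells, fibroblasts and other tissue cells through a receptor of IL-17RA and IL-17RC, which recruits the adaptor Act1 and induces chemokines and antimicrobial proteins. IL-22 belongs to the IL-10 family, is made by many of the same T cells and signals through IL-22RA1 and IL-10RB on epithelia. IL-17RE pairs with IL-17RA to bind the epithelial cytokine IL-17C, and has been described on mouse Th17 cells.

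The deposited values are read counts divided by a size factor per library, called normalised counts below, and reads recovered from them came to 16009755 to 51347367 per library. Stim1 stood at 811, 794 and 687 in Stim1KO Stat3C, against 1999, 1969 and 1931 in Stat3C, lower in the genotype labelled with floxed Stim1. The Stim1KO Stat3C mean was still 0.388 of the Stat3C mean, and the source of the remaining Stim1 RNA was not tested. The T cell gene Cd3e averaged 3683 ± 130 in Stim1KO Stat3C and 3053 ± 114 in Stat3C (SD, n = 3 each), and the Th17 marker genes Rora, Il23r and Ccr6 were detected in every library. Replicate 3 of each group stood apart by Xist, the RNA of the inactive X chromosome, at 11549 in Stim1KO Stat3C and 8362 in Stat3C, against 1.37 to 3.53 in the other 4 libraries. Stat3C replicate 2 differed more from the other libraries of its group than those did from each other. That replicates came from separate mice is stated nowhere in the labels, so p-values measure the spread between these libraries, which may be technical in part. The test was limma on log2(value + 1), for the 11947 genes averaging 10 normalised counts or more, with p-values adjusted over all of them. Log2 fold changes on that scale are Stim1KO Stat3C minus Stat3C, which understates the change of genes with low counts.

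Il17a and Il17f fell in Stim1KO Stat3C cells, Il17ra rose slightly, and Il22 and Il17re did not pass the test. Il17rc was near the detection limit in both genotypes and was not tested. Thus 3 of the 5 tested genes passed an adjusted p of 0.05, against 13.6% of all tested genes, 4.96% lower and 8.62% higher. The groups did not overlap for the same 3 genes, against 35.6% of all tested genes. As the genes were chosen with earlier results of these data known, these shares are a description only.

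Il17a, the signature cytokine gene of the lineage, had 586, 409 and 442 normalised counts in Stim1KO Stat3C, against 2593, 3413 and 3919 in Stat3C. Every Stim1KO Stat3C library lay below every Stat3C library, and the lowest Stat3C value was still far above the highest Stim1KO Stat3C value. The mean was 479 ± 94.2 in Stim1KO Stat3C and 3308 ± 669 in Stat3C (SD, n = 3 each), 6.91 times higher in Stat3C. The log2 fold change was -2.78 (SE 0.17, 95% interval -3.18 to -2.38, limma adjusted p = 0.000287). It was the 48th most negative fold change of all tested genes. In these bulk libraries fewer Il17a-producing cells and less Il17a RNA per cell cannot be told apart.

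Il17f, which encodes the more abundant of the pair at the RNA level, had 3106, 3532 and 2874 normalised counts in Stim1KO Stat3C, against 9805, 10683 and 12993 in Stat3C. The groups did not overlap here either. The mean was 3171 ± 334 in Stim1KO Stat3C and 11160.5 ± 1647 in Stat3C (SD, n = 3 each), 3.52 times higher in Stat3C. The log2 fold change was -1.81 (SE 0.11, 95% interval -2.07 to -1.55, limma adjusted p = 0.000287), the 110th most negative. Il17a and Il17f counts added together fell to 3650 ± 315 in Stim1KO Stat3C, against 14469 ± 2280 in Stat3C.

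**Figure D1:**
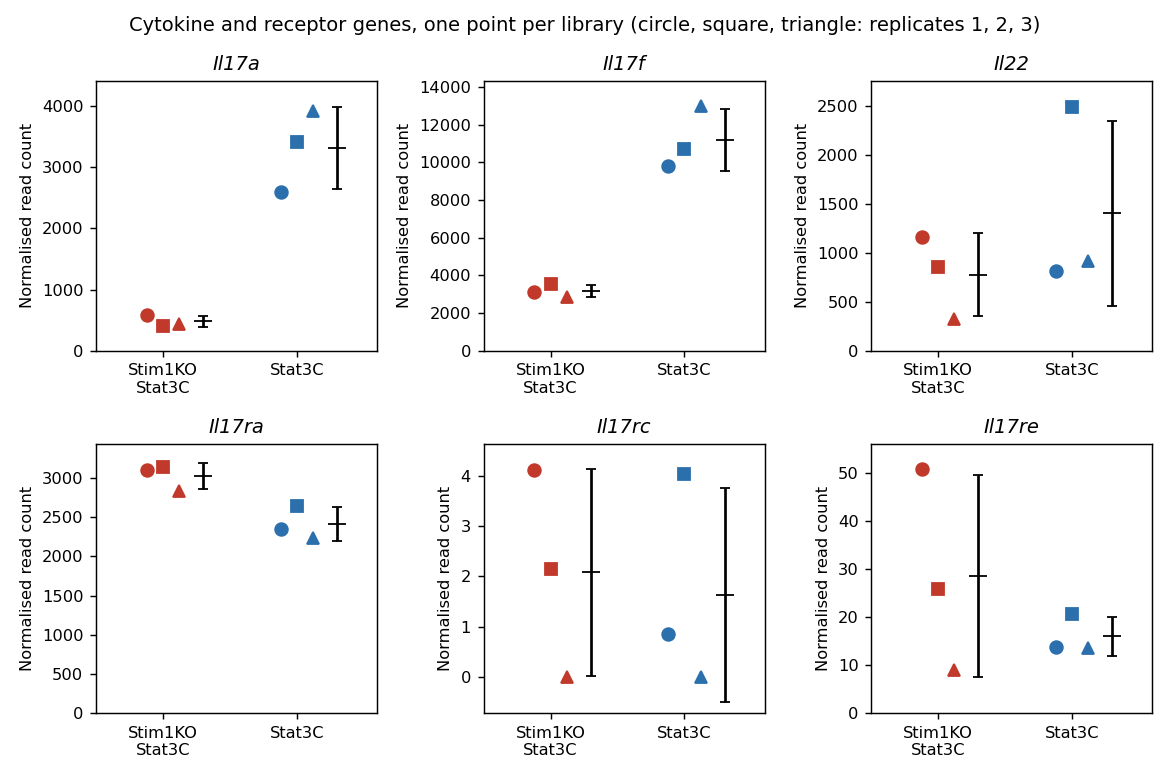
Normalised read count (y axis) of each of the 6 genes in the 3 Stim1KO Stat3C libraries (left) and the 3 Stat3C libraries (right), with circles, squares and triangles for replicates 1, 2 and 3 and the mean ± SD in black. Il17a stayed between 409 and 586 in Stim1KO Stat3C and between 2593 and 3919 in Stat3C, whereas the points of Il22, Il17rc and Il17re overlapped.

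Il17a (ENSMUSG00000025929.4, chromosome 1, 20730905 to 20734496, plus strand, GRCm38) and Il17f (ENSMUSG00000041872.9, chromosome 1, 20777146 to 20790617, minus strand) are neighbours that point toward each other, 42.7 kb apart. Because both fell, their promoters are shown, as the 250 bases before the RefSeq start (GRCm38.p6), at chr1:20730655-20730904 on the plus strand for Il17a and chr1:20784271-20784520 on the minus strand for Il17f. Capitals mark the ROR element AGGTCA, the NFAT core GGAAA and the AP-1 element TGANTCA, on either strand.
Il17a: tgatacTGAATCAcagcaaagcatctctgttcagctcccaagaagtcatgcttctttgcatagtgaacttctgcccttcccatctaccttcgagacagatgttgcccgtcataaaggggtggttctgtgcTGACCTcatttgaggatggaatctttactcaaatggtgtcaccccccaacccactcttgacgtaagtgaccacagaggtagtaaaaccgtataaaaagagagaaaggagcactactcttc
Il17f: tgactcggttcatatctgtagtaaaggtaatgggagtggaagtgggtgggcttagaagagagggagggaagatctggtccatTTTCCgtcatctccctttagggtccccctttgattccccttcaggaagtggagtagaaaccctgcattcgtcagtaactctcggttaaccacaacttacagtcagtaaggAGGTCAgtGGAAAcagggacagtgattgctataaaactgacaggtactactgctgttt

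The letters of the ROR element, which nuclear receptors of the ROR family bind, stood once in each promoter, at -120 to -115 of Il17a on the minus strand and at -58 to -53 of Il17f on the plus strand. They stood in 16.3% of all 32851 promoters of the table, searched over 250 bases before to 50 after the start. The NFAT core, which the calcium-activated NFAT factors bind, was found at 2 places of the Il17f promoter, at -168 to -164 and at -50 to -46, and not in that of Il17a. It stood in 61.3% of all promoters. The AP-1 element, found at -244 to -238 of Il17a alone among the 5 of 6 genes matched in the table, stood in 7.81% of promoters, and the STAT element TTCNNNGAA in none of the 5 and in 8.30% of all. The searched motifs did not overlap in these promoters, and a match of letters is a description, not a bound site.

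Of 13 other tested genes within 100 kb of any of the 6 genes, 2 fell and none rose, a share close to the 13.6% called among all tested genes. Mcm3, a subunit of the replicative DNA helicase 12.4 kb from Il17f, averaged 12987 ± 883 in Stim1KO Stat3C and 16135 ± 617 in Stat3C (log2 -0.31, limma adjusted p = 0.0157). Mcm3 was no longer called in 4 of 22 alternative settings. Paqr8, which encodes a membrane progestin receptor 100.0 kb from Il17f, averaged 148 ± 19.0 in Stim1KO Stat3C and 261 ± 21.4 in Stat3C (log2 -0.82, limma adjusted p = 0.00918). Mcm3 and Paqr8 were the only other tested genes within 100 kb of Il17a or Il17f, so the pooled share does not describe that locus. The other 11, near Il22, Il17ra, Il17rc or Il17re, did not pass.

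The ratio of Il17a to Il17f counts was lower in Stim1KO Stat3C than in Stat3C in every library. It was 0.189, 0.116 and 0.154 in Stim1KO Stat3C, against 0.264, 0.319 and 0.302 in Stat3C. As the ratio is formed within a library, it does not depend on the size factor. Its log2 value was lower by 0.97 in Stim1KO Stat3C (log2 difference -0.97), a 1.96-fold lower ratio. The exact two-sided permutation test gave p = 0.1, the smallest that 3 against 3 libraries allow, and an adjusted p of 0.333 over the 5 ratios compared. The difference was -0.97 in replicates 1 and 2 alone, where Xist was near 0, and -0.97 between the 2 libraries of replicate 3.

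Il17a made up 15.9% (95% exact binomial interval 14.5 to 17.3), 10.4% (9.41 to 11.4) and 13.3% (12.2 to 14.5) of the Il17a and Il17f counts in Stim1KO Stat3C. In Stat3C it made up 20.9% (20.4 to 21.4), 24.2% (23.7 to 24.7) and 23.2% (22.5 to 23.8). These intervals cover counting error only, and the libraries of a group differed by more than that in part. None of the Stim1KO Stat3C intervals reached a Stat3C interval.

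**Figure D2:**
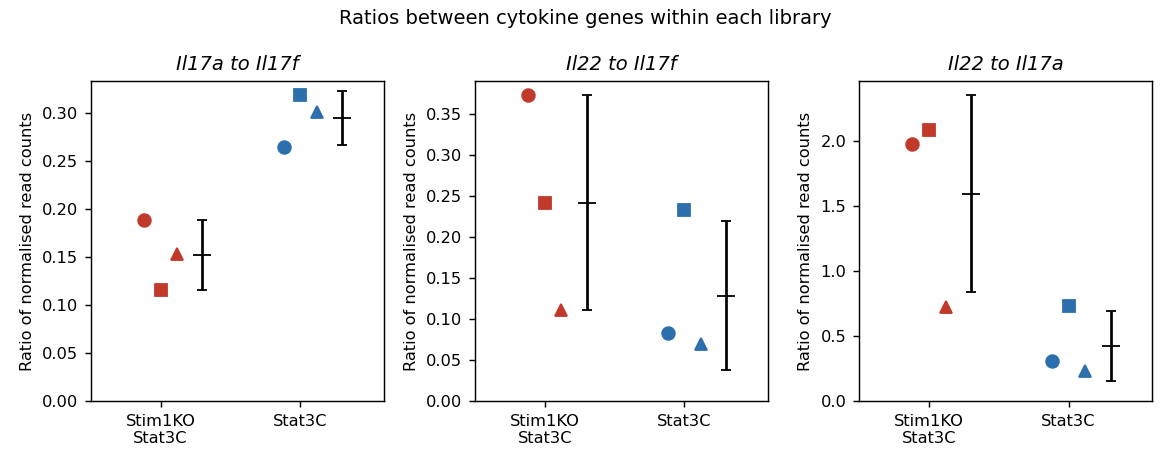
Ratio of normalised counts within each library (y axis) for Il17a to Il17f, Il22 to Il17f and Il22 to Il17a, with Stim1KO Stat3C left and Stat3C right, replicates 1, 2 and 3 as circles, squares and triangles, and the mean ± SD in black. The Il17a to Il17f ratio lay between 0.116 and 0.189 in Stim1KO Stat3C and between 0.264 and 0.319 in Stat3C, while the other 2 ratios overlapped.

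Il22, the third cytokine gene (ENSMUSG00000074695.3, chromosome 10, 118204942 to 118210047, plus strand), varied widely within each genotype and did not pass the test. It had 1159.9, 853 and 321 normalised counts in Stim1KO Stat3C, against 811, 2494 and 913 in Stat3C. The groups overlapped, with replicate 3 low in Stim1KO Stat3C and replicate 2 high in Stat3C. The mean was 778 ± 424 in Stim1KO Stat3C and 1406 ± 944 in Stat3C (SD, n = 3 each), and the log2 fold change was -0.84 (95% interval -2.08 to 0.39, limma adjusted p = 0.32). That interval includes no change as well as a fall as large as that of Il17f. Without Stat3C replicate 2 the log2 fold change was -0.33 (adjusted p = 0.593) and without Stim1KO Stat3C replicate 3 it was -0.30 (adjusted p = 0.689). The near-identical gene Iltifb, 79.6 kb away with 97.4% of 1110 aligned transcript bases shared, had 0 to 24 reads per library, so reads that fit both copies may have been lost from Il22.

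The ratios of Il22 to Il17a and to Il17f overlapped between genotypes. The Il22 to Il17a ratio of counts was 1.98, 2.08 and 0.727 in Stim1KO Stat3C, against 0.313, 0.731 and 0.233 in Stat3C. Replicate 3 of Stim1KO Stat3C fell just under replicate 2 of Stat3C, so the groups overlapped. The log2 difference was 1.94 (exact permutation p = 0.2, adjusted p = 0.333 over the 5 ratios). The Il22 to Il17f ratio was 0.373, 0.241 and 0.112 in Stim1KO Stat3C, against 0.0827, 0.233 and 0.0703 in Stat3C, with a log2 difference of 0.97 (exact permutation p = 0.2, adjusted p = 0.333). With 1 library left out, the log2 difference of the Il22 to Il17a ratio ranged from 1.59 to 2.43. It was 2.43 without Stim1KO Stat3C replicate 3 and 2.42 without Stat3C replicate 2.

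Il17ra, the receptor chain shared by most IL-17 family ligands (ENSMUSG00000002897.5, chromosome 6, 120463247 to 120487559, plus strand), had 3096, 3139 and 2828 normalised counts in Stim1KO Stat3C, against 2344, 2647 and 2235 in Stat3C. All 3 Stim1KO Stat3C values lay above all 3 Stat3C values, with replicate 3 the lowest of each group. The mean rose to 3021 ± 168 in Stim1KO Stat3C, against 2409 ± 213 in Stat3C (SD, n = 3 each), a log2 fold change of 0.33 (SE 0.08, 95% interval 0.15 to 0.51, limma adjusted p = 0.0283). The call was lost when any of 4 libraries was left out, at adjusted p = 0.103 without Stim1KO Stat3C replicate 1 or 2 and 0.106 without Stat3C replicate 1 or 3, with log2 fold changes of 0.28 to 0.31. Within the libraries low in Xist the log2 difference was 0.32, and between those high in Xist it was 0.34.

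Il17re, the IL-17C receptor chain (ENSMUSG00000043088.16, chromosome 6, 113458484 to 113470758, plus strand), was low, at 50.7, 25.8 and 8.96 normalised counts in Stim1KO Stat3C, against 13.9, 20.6 and 13.6 in Stat3C. Stim1KO Stat3C held both the highest and the lowest value, and the groups overlapped. The mean was 28.5 ± 21.0 in Stim1KO Stat3C and 16.0 ± 4.01 in Stat3C (SD, n = 3 each), and the log2 fold change of 0.52 did not pass (95% interval -0.87 to 1.91, limma adjusted p = 0.592). Without Stim1KO Stat3C replicate 1 it was -0.035. The values rest on 9 to 37 reads in Stim1KO Stat3C and 14 to 41 reads in Stat3C.

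Il17rc, whose chain completes the receptor for IL-17A and IL-17F (ENSMUSG00000030281.16, chromosome 6, 113471427 to 113483140, plus strand), lies 669 bases downstream of Il17re. It had 3, 2 and 0 reads in Stim1KO Stat3C, which is 4.11, 2.15 and 0 normalised counts, and 2, 8 and 0 reads in Stat3C, which is 0.866, 4.03 and 0 normalised counts. A count of 0 allows up to 3 reads, or 2.99 and 2.91 normalised counts in the replicate 3 libraries of Stim1KO Stat3C and Stat3C. With 5 of 59189773 reads in all Stim1KO Stat3C libraries and 10 of 117971828 in all Stat3C libraries, no difference was detectable at this depth. Markers of epithelial cells and fibroblasts, the usual sites of Il17rc, added up to 153 to 212 normalised counts over 6 genes in Stim1KO Stat3C and 72.7 to 218 in Stat3C. Of these genes Col1a1 rose (log2 1.81), 3 others that were tested did not pass, and Krt8 was at 0 in every library. The high Stat3C sum was that of replicate 2, where Col1a2 stood at 105, against 2.60 and 0 in Stat3C replicates 1 and 3. In Stim1KO Stat3C, Col1a2 stood at 34.2, 22.6 and 21.9.

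**Figure D3:**
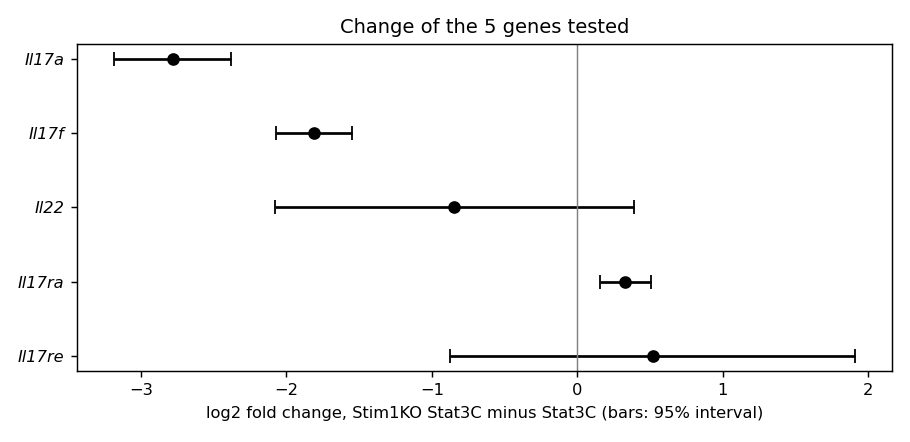
Log2 fold change of Stim1KO Stat3C minus Stat3C (x axis) for the 5 genes tested, with bars for the 95% interval from limma. Il17a at -2.78 and Il17f at -1.81 lay left of 0, Il17ra at 0.33 lay right of it, and the intervals of Il22 and Il17re crossed it.

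Levels of different genes can be compared after division by exon length. Per kilobase of merged exons (GENCODE release M21), Il17f stood highest in both genotypes, at 1568 ± 165 in Stim1KO Stat3C and 5520 ± 814 in Stat3C. In Stim1KO Stat3C the next levels per kilobase were Il22 at 701 ± 382, Il17a at 409 ± 80.4 and Il17ra at 349 ± 19.4, and the libraries of these 3 genes overlapped. In Stat3C they were Il17a at 2825 ± 571, Il22 at 1267 ± 850 and Il17ra at 278 ± 24.6 per kilobase, with Il17a and Il22 overlapping and Il17ra below both in every library. Il17re at 4.85 ± 3.58 in Stim1KO Stat3C and 2.73 ± 0.683 in Stat3C, and Il17rc at 0.781 ± 0.769 in Stim1KO Stat3C and 0.611 ± 0.794 in Stat3C, were lowest per kilobase (SD, n = 3 each throughout). The exon length of Il17f, 2022 bases, includes a longer transcript variant, while its longest coding transcript, 1178 bases, is close to the 1171 bases of Il17a, so its level per kilobase may be understated.

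**Figure D4:**
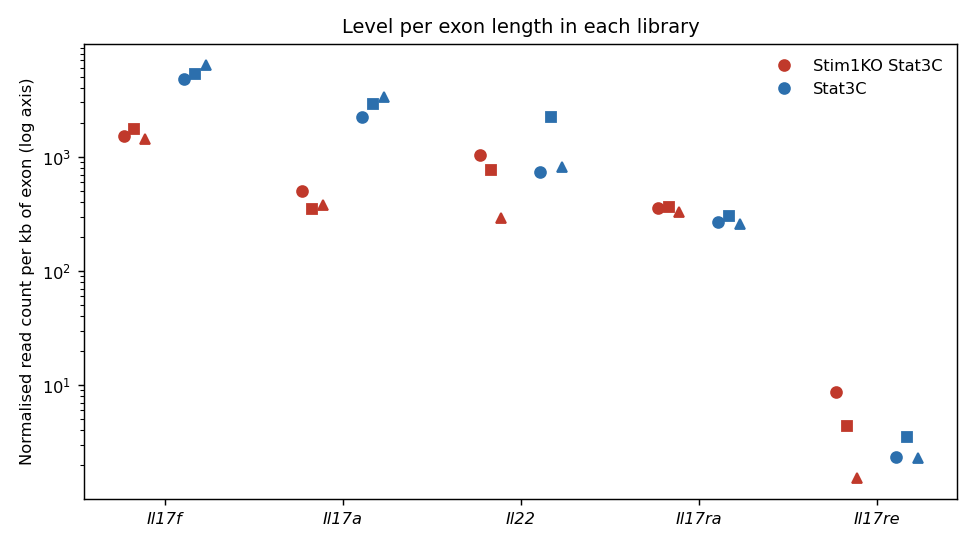
Normalised count per kilobase of merged exons (y axis, log scale) of 5 genes in each library, with Stim1KO Stat3C in red left of Stat3C in blue and replicates 1, 2 and 3 as circles, squares and triangles. Il17a lay above Il17ra in every Stat3C library but overlapped Il22 and Il17ra in Stim1KO Stat3C. Il17rc is left out because it was at 0 in 2 libraries.

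Some markers of T cells and of other cell types moved with the genotype beside the fall of Il17a and Il17f. The CD8 genes Cd8a and Cd8b1 added up to 111 to 159 normalised counts in Stim1KO Stat3C, against 277 to 453 in Stat3C, and both fell. Of 5 markers of gamma delta T cells, which also make IL-17A, Sox13 and Blk could be matched, and their sum was 6.85 to 24.9 in Stim1KO Stat3C and 51.9 to 56.2 in Stat3C. Blk, also a B cell kinase, fell, and Sox13 did not pass. The 5 B cell genes added up to 30.1 to 58.9 in Stim1KO Stat3C and 124 to 352 in Stat3C. Of the 4 tested, 2 were lower, among them Cd79a, while Cd79b and Cd22 did not pass. Ms4a1, which was not tested, was at 0 in every Stim1KO Stat3C library. The 4 myeloid genes in the table added up to 5.97 to 17.2 in Stim1KO Stat3C and 17.4 to 140 in Stat3C. Itgam and Cd14, the 2 that were tested, did not pass. The high sum was that of Stat3C replicate 2, where Itgam stood at 72.5, against 14.7 and 7.75 in Stat3C replicates 1 and 3. Csf1r was at 0 in Stim1KO Stat3C and in Stat3C replicate 3. The 5 NK and innate lymphoid genes added up to 111 to 281 in Stim1KO Stat3C and 31.0 to 32.2 in Stat3C. Eomes, also counted below as a repressor, rose and made up most of the Stim1KO Stat3C sums, at 151, 106 and 268. The other genes of this list were too low to test. Klrb1c was at 0 in every Stim1KO Stat3C library and in Stat3C replicate 2. Of 6 T cell genes, 5 rose, with Cd2 at log2 0.64 the most, where 8.62% of all tested genes rose and 4.96% fell. Left-out libraries and other settings ended the call of Cd8b1 in 6 of 22 cases, of Cd79a in 7 of 21, of Col1a1 in 6 of 22 and of Blk in 2 of 20. Of the T cell genes, Cd3g lost its call in 6 of the 22, Cd3e in 4, Cd3d and Cd5 in 3 each, and Cd2 in none. Their part in the fall of the IL-17 genes was not tested.

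Genes with the profile most like each cytokine over the 6 libraries were found by the root mean square difference of log2 values centred per gene, among 10247 genes with a mean of at least 50. They share libraries and genotype with the cytokines, so the likeness is a description. For Il17a they were Adh1 (alcohol dehydrogenase, 0.37), Acsl6 (a long-chain acyl-CoA synthetase, 0.41), Lipg (endothelial lipase, 0.49) and Nebl (nebulette, an actin-binding protein, 0.49). Adh1 averaged 15.0 ± 0.984 in Stim1KO Stat3C and 152 ± 19.0 in Stat3C. Il17f was the gene 6th nearest to Il17a, and Il17a was the 62nd nearest to Il17f, at the same difference of 0.53. The difference is not scaled for the size of a gene's change. The ranks therefore also depend on how many genes changed by a similar amount. For Il17f the nearest were Myh10 (a non-muscle myosin heavy chain, 0.22), Fads2 (a fatty acid desaturase, 0.24), Lad1 (ladinin, 0.24) and Atp1b1 (a sodium pump subunit, 0.25), and Myh10 averaged 195 ± 33.0 in Stim1KO Stat3C and 698 ± 75.7 in Stat3C.

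The profile nearest to Il22 was that of Il18bp, which encodes the secreted inhibitor of IL-18, at a difference of 0.14, followed by Stx3 (0.30), Ramp3 (0.36) and Gstt1 (0.37). Il18bp had 67.1, 51.5 and 21.9 normalised counts in Stim1KO Stat3C, against 51.1, 138 and 47.5 in Stat3C. As with Il22, replicate 3 was the low library of Stim1KO Stat3C and replicate 2 the high library of Stat3C. None of these 4 genes passed the test (Il18bp log2 -0.70, limma adjusted p = 0.392).

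**Figure D5:**
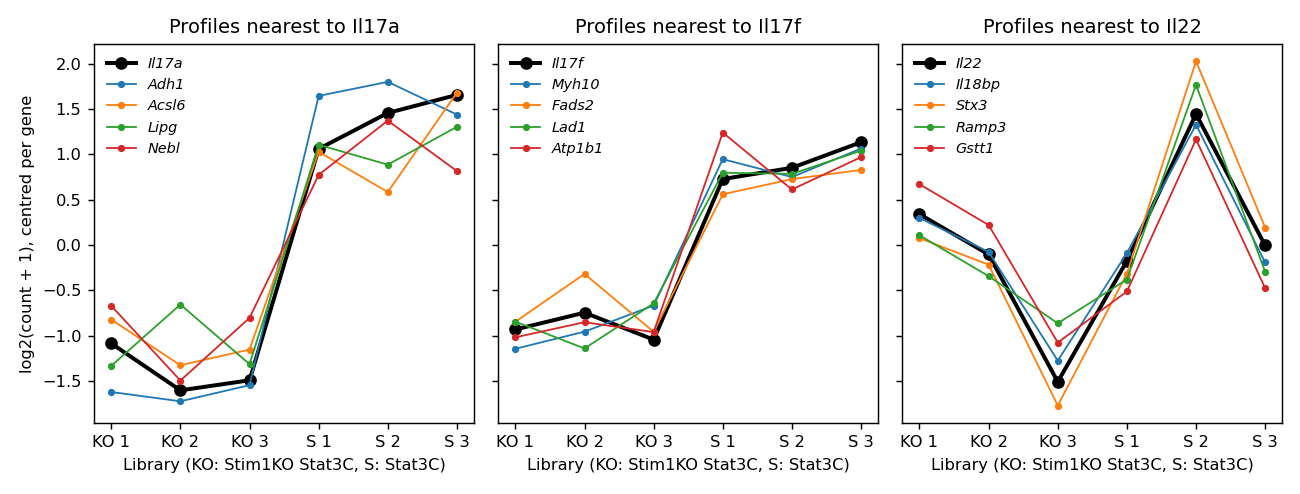
Log2(count + 1) centred per gene (y axis) in the 3 Stim1KO Stat3C and 3 Stat3C libraries (x axis) for Il17a, Il17f and Il22 (black) and the 4 genes nearest to each (colours). Lines join the values of a gene and imply no order of the libraries. The Il17a and Il17f panels separate the genotypes, while the Il22 panel turns on Stim1KO Stat3C replicate 3 and Stat3C replicate 2.

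The other IL-17 family ligands and receptors were near or below detection. Il17b and Il25 were at 0 reads in every library, Il17c and Il17d had at most 6 reads, Il17rb at most 4 and Il17rd 0 to 11 in Stim1KO Stat3C and 6 to 10 in Stat3C. None of these 6 genes was tested. Of 10 receptor and IL-10 family genes related to IL-22, 4 were tested and 1, Il10, rose (2406 ± 1129 in Stim1KO Stat3C and 307 ± 149 in Stat3C, log2 2.97, limma adjusted p = 0.00325), with a median log2 fold change of 0.51 over the 4. Over all tested genes, 8.62% rose. Il22ra1, the IL-22 receptor chain of epithelia, stood at 0 in Stim1KO Stat3C and at most at 0.504 in Stat3C.

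Of 19 genes that carry the IL-17 receptor signal, 4 rose, 3 fell and 12 did not pass. Over all tested genes, 8.62% rose and 4.96% fell. The median log2 fold change of the 19 was 0.09 against 0.00 for all tested genes. Arid5a, an RNA-binding protein that stabilises cytokine mRNA, averaged 5297 ± 140 in Stim1KO Stat3C and 3299 ± 189 in Stat3C (log2 0.68, limma adjusted p = 0.000895). Traf6, the ubiquitin ligase that Act1 recruits, rose (log2 0.42), as did Tbk1 and Rela (0.27 and 0.24). Nfkbiz, which encodes the coactivator IkBz, averaged 1750 ± 105 in Stim1KO Stat3C and 2460 ± 54.4 in Stat3C (log2 -0.49, limma adjusted p = 0.00301), and Cebpd and Tab2 also fell (-1.48 and -0.21). Traf3ip2, which encodes Act1, stood at 758 ± 13.4 in Stim1KO Stat3C and 656 ± 46.4 in Stat3C and did not pass.

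Of 9 brakes on this signal, 3 fell, none rose and 6 did not pass, beside 4.96% lower and 8.62% higher among all tested genes. Their median was 0.08. Those that fell were the deubiquitinase gene Usp25 (log2 -0.42), Traf4 (-0.36) and Zc3h12a (-0.33), which encodes the RNase Regnase-1. Of 14 genes that tissue cells induce in response to IL-17, such as Cxcl1 and Defb4, 11 were too low to test. Of the other 3, the collagenase gene Mmp13 rose to 53.2 ± 9.77 in Stim1KO Stat3C, against 4.18 ± 6.43 in Stat3C (limma adjusted p = 0.0205). Lcn2 and Il6 did not pass. The median of the 3, -0.90, was that of Il6. Il6 stood at 90.7 in Stat3C replicate 2, against 12.1 and 8.72 in Stat3C replicates 1 and 3. Lcn2 was likewise highest in Stat3C replicate 2, at 82.6. Across 22 alternative settings Zc3h12a lost its call in 9, Rela in 8, Tab2 in 7, Tbk1 in 6, Cebpd in 5, and Mmp13 in 8 of 21.

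Among genes of transcription factors that act on Il17a and Il17f, 2 of 12 activators rose and 9 did not pass. The median of the 12 was 0.08. For comparison, 8.62% of all tested genes rose and 4.96% fell. Nfatc2 rose to 4966 ± 716 in Stim1KO Stat3C, against 2536 ± 148 in Stat3C, and Ahr, the aryl hydrocarbon receptor gene needed for Il22 in mice, rose to 798 ± 174 in Stim1KO Stat3C, against 338 ± 56.4 in Stat3C. Of 9 repressors, 4 rose (Foxp3, Eomes, Ets1 and Tbx21, log2 0.45 to 3.15), 2 fell (Stat5a and Stat5b, -0.28 and -0.24) and 3 did not pass; their median was 0.17. Across 22 alternative settings Stat5a lost its call in 8, Stat5b in 6, Tbx21 in 5 and Ets1 in 4.

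Most receptors for the cytokines in the culture did not pass the test. Of 6, 1 rose and 5 did not pass, where 8.62% of all tested genes rose. The median of the 6 was -0.13. In 8 of 22 alternative settings 1 of the 6 was called lower. Il12rb1, the chain that the IL-23 and IL-12 receptors share, rose (6816 ± 39.7 in Stim1KO Stat3C and 5020 ± 314 in Stat3C, log2 0.44, limma adjusted p = 0.00309). Among the 5 that did not pass was Il23r, at 275, 173 and 95.5 in Stim1KO Stat3C against 375, 423 and 333 in Stat3C. Its groups did not overlap, and replicate 3 was the lowest library of both genotypes (log2 -1.17, limma adjusted p = 0.0529).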

How the data were processed

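Poly(A) RNA from 6 libraries, 3 per genotype, was sequenced from 100 ng of RNA with a stranded kit, per the labels' protocols. The deposited values are a normalised signal for each gene; their steps fit whole reads scaled by 1 factor per library. DESeq2 1.22.2, HTSeq 0.11.1, TopHat2 2.1.1 and the build mm10 appear, without roles, in the submitters' processing notes, and the sources used here give neither gene models nor counting settings. Dividing each column by its smallest step gave whole reads (within 0.01) for 100% of values above 0, 16009755 to 51347367 per library. Where 0 reads were seen, up to 3 are allowed, as counting error only. Of 23420 rows, 27 with date-like names were left out.

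The main test was two-sided limma (3.58.1, R 4.3.3) on log2(value + 1), with its variance trend, for genes with a mean of at least 10, with Benjamini-Hochberg adjustment. edgeR 4.0.16 and DESeq2 1.42.0 ran on recovered reads as alternatives. Ratios were compared by exact permutation over libraries. No pair of libraries within a group agreed within sampling noise (chi-square over degrees of freedom at least 8.83). Replicate numbers follow accession order and pair no libraries. Positions and exon lengths come from GENCODE release M21 (GRCm38), promoters from RefSeq (GRCm38.p6).

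The 6 genes and all lists were chosen with earlier results of these data known. Named genes are the 6, checks, the 4 nearest profiles per cytokine, neighbours within 100 kb and up to 3 called genes per list. Tbk1, Rela, Cebpd, Tab2, Tbx21, Stat5a and Stat5b, Il23r, Il22ra1, Traf3ip2, the other IL-17 family genes and the named markers fall outside that rule; they were chosen with their values known. Results of some list genes are not reported here. Scripts were tested on simulated data. Alternatives were other pseudocounts, filters, scalings, variance priors, library weights, voom, thinning to equal depth, Xist class as a covariate and each library left out.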

Additional observations from a re-analysis of the deposited data

How the results depend on the processing

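Il17a and Il17f kept their direction and call in all 22 alternatives (log2 -2.95 to -2.65 and -1.90 to -1.67). Il22 passed in none (log2 -1.23 to -0.28, adjusted p = 0.201 to 0.689). Il17ra kept its direction in all 22 and lost its call in 6: without a variance trend (log2 0.33, adjusted p = 0.0859), with edgeR without Stim1KO Stat3C replicate 3 (0.36, adjusted p = 0.0516), an alternative chosen after seeing the data, and in 4 of the 6 fits that left out a single library (log2 0.28 to 0.40 over those 6 fits; the highest, without Stat3C replicate 2, kept its call). Il17re ranged with single libraries left out between -0.035 and 1.15. The Il17a to Il17f log2 ratio difference stayed between -1.14 and -0.79 over 9 alternatives. The Il17rc to Il17ra ratio reversed when thinned to equal depth (0.53) and ranged between -0.56 and 0.55 with a library left out, and the Il17re to Il17ra ratio between -0.35 and 0.78. Of the genes with profiles near Il22, Gstt1 (log2 -0.12) reversed with library quality weights (0.42), with edgeR without Stim1KO Stat3C replicate 3 (0.16) and without Stim1KO Stat3C replicate 3 or Stat3C replicate 2 (-0.49 to 0.43 over the libraries left out). The number of genes called, 1623, was 827 without a variance trend, 3959 with library quality weights, 922 with edgeR without Stim1KO Stat3C replicate 3, and 617 to 2899 with a library left out, highest without Stat3C replicate 2. The causes were not tested. Xist class as a covariate changed no call of the 5 tested genes. Scaling alternatives changed no direction of these genes. Depth limits Il17rc and Il17re most. No paired analysis was possible because the labels give no pairing and no shared replicate numbers.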
